A study of Mus musculus with 10 samples.

Results

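The genes described here encode the subunits of the receptors for glutamate, GABA and glycine. They were chosen by their GENCODE M21 symbols as the protein-coding AMPA (Gria), kainate (Grik), NMDA (Grin) and delta (Grid) subunits, the metabotropic glutamate receptors (Grm), the GABA-A (Gabr) and GABA-B (Gabbr) subunits and the glycine receptor subunits (Glra, Glrb). Grm6, the receptor of ON bipolar cells, is outside that choice. Of the 57010 genes in the table, 52 had such a symbol, and the 49 with a mean of at least 0.5 CPM (counts scaled to a common library size) over all libraries form the set. Grid2ip is among the 49 by its name alone, since it encodes delphilin, a postsynaptic scaffold protein, and is not itself a subunit. Closest above the minimum lay Gabra5 at 0.819 CPM and Gabrq at 0.846 CPM. Below it lay Gabre at 0.426 CPM, while Gabra6 and Gabrp had 0 counts in every library and so a level below 0.274 CPM, the highest floor that 3 counts set in any library.

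RNA was sequenced from retinas of 10 mice, 5 given AAV2-GFP and 5 given AAV206-GFP. All were 6 to 8 weeks old and were injected into the vitreous, and all retinas were collected 14 days later. Both groups received an adeno-associated virus carrying green fluorescent protein (GFP), in the AAV2 capsid or in a capsid named AAV206. The labels give neither strain, sex nor the promoter of the reporter, uninjected retinas were not analysed here, and each difference below is therefore AAV206-GFP against AAV2-GFP. The labels name a retina from each numbered mouse but do not say whether 1 or both eyes were used.

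Glutamate is the transmitter of photoreceptors, bipolar cells and ganglion cells, and GABA and glycine are the transmitters of horizontal and amacrine cells. Ionotropic receptors are ion channels assembled from several subunits, and the subunits present set how strongly a channel binds its transmitter, how fast it closes and which drugs act on it. Metabotropic glutamate receptors and GABA-B receptors signal through G proteins instead.

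Of the receptor genes, as the 49 are called here with Grid2ip among them, 2 passed the test, both of them subunits. Gabra2, the alpha2 subunit of the GABA-A receptor, was lower with AAV206-GFP, at 60.6% of its level with AAV2-GFP. With edgeR's quasi-likelihood test and adjustment over all genes tested, 2 of the 48 tested receptor genes (4.17%) had an adjusted p under 0.05, against 11.2% of all 15539 genes tested. Among all genes 5.95% were called higher and 5.3% called lower, and among the receptor genes 1 was called in each direction. The groups did not overlap for 2 of 48 receptor genes (4.17%), against 9.78% of all genes. At an unadjusted p under 0.05 there were 9 receptor genes (18.8%), 4 higher and 5 lower, against 28.0% of all genes. The median log2 fold change was 0.04 over the receptor genes and -0.01 over all genes, with 28 positive and 20 negative values among the receptor genes. Their median was 0.00 without AAV2-GFP 1, AAV2-GFP 3 or AAV206-GFP 4, and -0.01 without AAV2-GFP 1 and 4. The 95% interval lay within 1.5-fold either way for 35 of the 48 (72.9%) and for 67.2% of all genes. In bulk tissue, fewer cells of a type and less RNA per cell cannot be told apart for any of these values. The count of receptor genes called rested partly on 1 library: without AAV2-GFP 1 it was 6, among them Gabra2, Gabrr1, Gabrr2, Grik3 and Grid2ip. The count over all genes, 1747, fell to 991 without AAV2-GFP 4, 1056 without AAV206-GFP 4 and 1074 without AAV206-GFP 2. With total counts as the only scaling, 1 receptor gene was called higher and 2 lower, Grm4 being the addition.

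**Figure D1:**
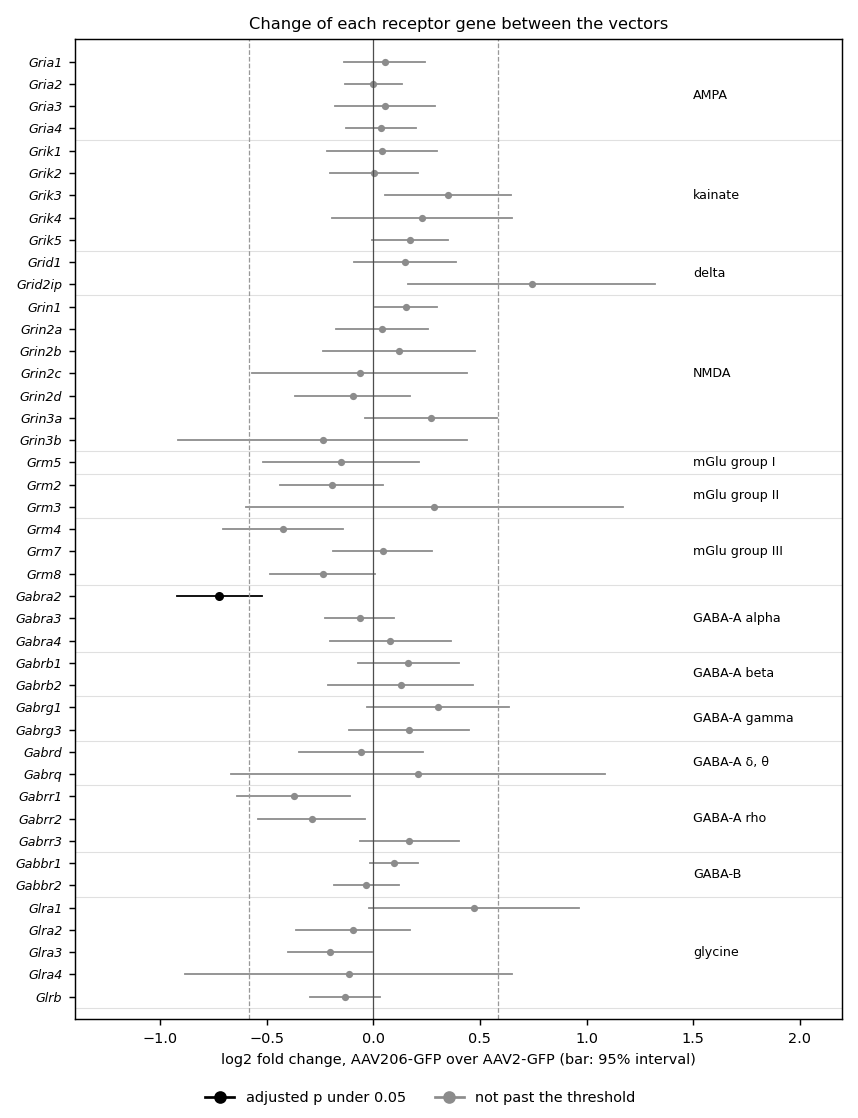
Log2 fold change of 43 of the tested genes, AAV206-GFP over AAV2-GFP (horizontal axis), with its 95% interval as a bar and dashed lines at 1.5-fold either way. Gabra2 at -0.72, in black, is the only one drawn with an adjusted p under 0.05, and most other intervals lie between the dashed lines.

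Libraries held between 10989843 and 12752604 counts. The retinal origin of the RNA was plain in the rod genes, whose summed level was 53222 to 56737 CPM with AAV2-GFP and 56906 to 62777 CPM with AAV206-GFP. Of the lists of retinal neurons and glia, 2 of 8 rod genes and 2 of 7 cone genes were called higher, 1 cone gene and 1 of 9 ganglion cell genes were called lower, and 0 of 12 bipolar, 0 of 10 amacrine, 0 of 6 horizontal, 0 of 7 Muller glia and 0 of 5 reactive glia genes were called. Called lower were 5 of 8 interferon response genes (7 tested) and 2 of 9 microglia and macrophage genes (7 tested). Also lower were 2 of 7 lens genes (2 tested) and 1 of 7 pigment epithelium genes (5 tested). Of the other lists, 4 of 5 red blood cell genes were higher, 1 of 6 endothelial genes was higher and 2 were lower. Called were 0 of 6 oligodendrocyte genes (5 tested) and 0 of 7 T and NK lymphocyte genes, the latter all below the count filter. AAV2-GFP 1 had the highest summed microglia level, 314 CPM against 29.8 to 60.6 CPM in the others of its group, and AAV2-GFP 1 and 4 had the highest interferon response, 441 and 588 CPM against 80.8 to 146 CPM. No list gene was at 0 in all libraries. The part of these lists in the subunit results was not tested. Some values are given below without the libraries concerned, which takes out all that set those libraries apart at once.

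Levels of different genes are compared below as CPM per kilobase of merged exons. Long alternative untranslated regions in the annotation lower this value, so it ranks the genes only roughly. The highest values were 26.9 for Gabrr1, 24.5 for Gabbr1, 22.8 for Gabrr2 and 20.5 for Grik5, and the lowest among the 49 was 0.158 for Gabrq.

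**Figure D2:**
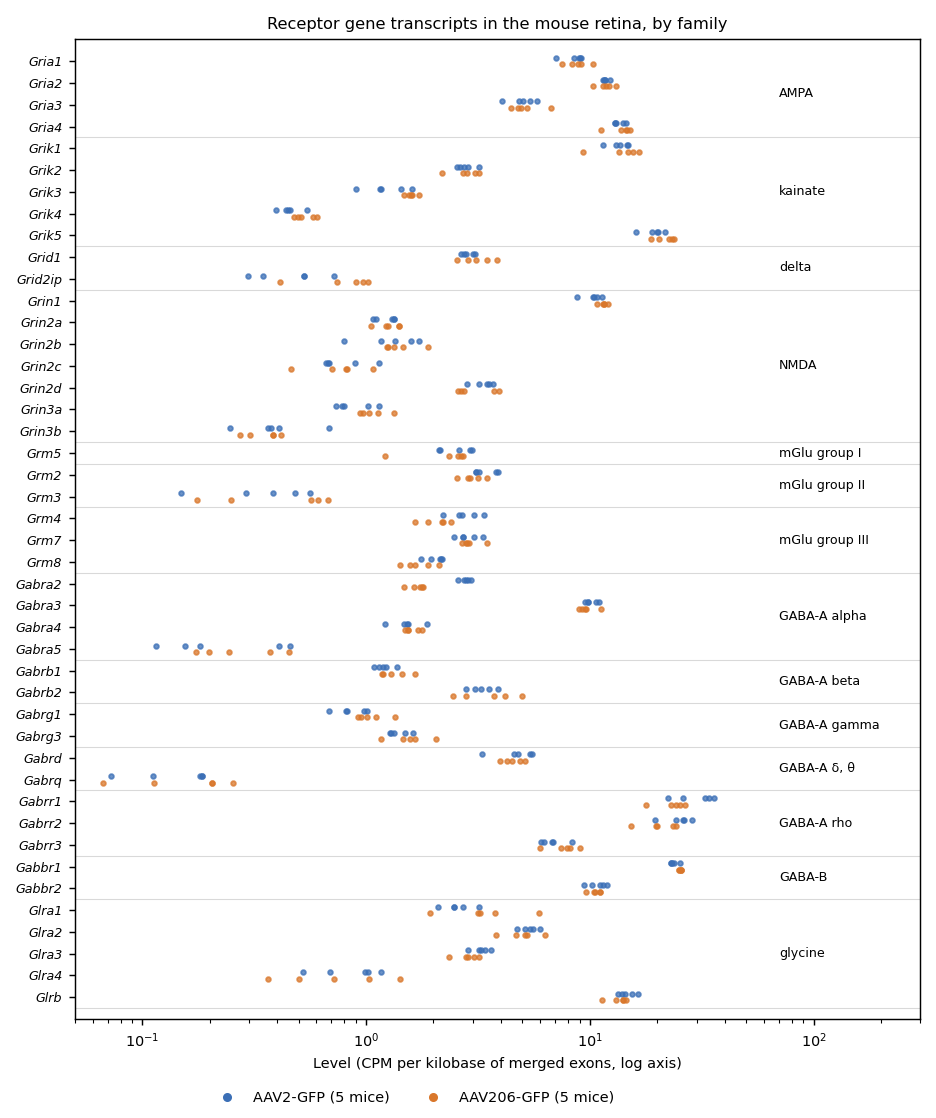
Level of 44 of the genes in each mouse, in CPM per kilobase of merged exons on a log axis, grouped by receptor family. Among the genes drawn, the blue AAV2-GFP and orange AAV206-GFP points lie apart without overlap only for Gabra2.

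The AMPA receptor subunits, which carry most fast glutamate transmission, were the most uniform family. Gria4 had the highest level per kilobase, 13.7, followed by Gria2 at 11.8, Gria1 at 8.68 and Gria3 at 5.12. Gria4 stood at 81.8, 91.2, 81.3, 82.4 and 88.5 CPM with AAV2-GFP and at 86.7, 95.3, 91.3, 92.0 and 70.5 CPM with AAV206-GFP. The groups overlapped, and the lowest value was that of AAV206-GFP 5. Its log2 fold change was 0.04 ± 0.08 (SE, adjusted p = 0.798). Gria2, whose subunit sets the calcium permeability of the channel, had equal means of 183 ± 5.09 and 183 ± 15.3 CPM (SD, n = 5), with a 95% interval of 91.1% to 110% of the AAV2-GFP level. Gria1 and Gria3 had log2 fold changes of 0.05 and 0.06. As shares of the summed AMPA level per kilobase, Gria1 to Gria4 made up 21.9%, 30.4%, 12.9% and 34.8% with AAV2-GFP and 22.3%, 29.7%, 13.2% and 34.8% with AAV206-GFP.

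Among the kainate receptor subunits, Grik5 and Grik1 led at 20.5 and 13.7 CPM per kilobase. Grik5, a high-affinity subunit that needs a partner from Grik1 to Grik3 to form a channel, stood at 82.9, 104, 103, 112 and 97.7 CPM with AAV2-GFP. With AAV206-GFP it stood at 123, 117, 96.7, 105 and 121 CPM. The ranges overlapped, and the log2 fold change was 0.17 ± 0.08 (SE, adjusted p = 0.197). Grik1, the GluK1 subunit of OFF bipolar cells, had means of 91.0 ± 9.27 and 93.7 ± 19.1 CPM (SD, n = 5) and a log2 fold change of 0.04. Grik3 had 14.4, 12.8, 8.12, 10.5 and 10.3 CPM with AAV2-GFP and 13.97, 14.3, 14.4, 15.4 and 13.3 CPM with AAV206-GFP. The AAV206-GFP values were tightly grouped, while AAV2-GFP 1 lay among them. Its log2 fold change of 0.35 ± 0.14 (SE) did not pass the test (adjusted p = 0.114), but was 0.45 with an adjusted p of 0.0349 without AAV2-GFP 1. Grik3 passed in 1 of the 10 fits that left out 1 library and in 2 of the 13 other alternatives. Grik2 and Grik4 had log2 fold changes of 0.00 and 0.23.

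The delta subunits are related to the other ionotropic receptors by sequence, but act chiefly as adhesion proteins bound across the synapse by cerebellins. Grid1 stood at 15.8, 16.3, 17.9, 16.6 and 18.4 CPM with AAV2-GFP and at 22.9, 20.6, 17.0, 18.6 and 15.2 CPM with AAV206-GFP. These ranges overlapped, with a log2 fold change of 0.15 ± 0.11 (SE, adjusted p = 0.411). Grid2ip, the delphilin gene, had means of 3.28 ± 1.15 and 5.48 ± 1.66 CPM (SD, n = 5) and a log2 fold change of 0.74 ± 0.27 (SE) that did not pass the test (adjusted p = 0.0892). Without AAV2-GFP 1 its adjusted p was 0.0378, and without AAV206-GFP 5 it was 0.0313. Grid2ip passed in 2 of the 10 fits that left out 1 library and in 1 of the 13 other alternatives. Its counts were not whole in 8 libraries. Of the cerebellins, Cbln1, Cbln2 and Cbln4 had log2 fold changes of -0.22, 0.10 and -0.44, none past the threshold.

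The NMDA receptor family was led by Grin1, the subunit every NMDA receptor contains, at 10.9 CPM per kilobase. Grin1 stood at 85.4, 99.8, 101, 110 and 105 CPM with AAV2-GFP and at 116, 111, 104, 113 and 113 CPM with AAV206-GFP. AAV2-GFP 1 was the lowest of all 10, and the log2 fold change of 0.15 ± 0.07 (SE) did not pass the test (adjusted p = 0.151). Of the Grin2 subunits, which bind glutamate and set the kinetics of the channel, Grin2d had the highest level per kilobase at 3.24, followed by Grin2b at 1.38, Grin2a at 1.25 and Grin2c at 0.792. Their log2 fold changes were -0.10 for Grin2d, 0.12 for Grin2b, 0.04 for Grin2a and -0.06 for Grin2c. Grin3a and Grin3b, which bind glycine and lower the calcium permeability, had log2 fold changes of 0.27 and -0.24. For the less abundant Grin2c and Grin3b the 95% intervals were wide, -0.57 to 0.44 and -0.92 to 0.44. Over the 18 ionotropic glutamate receptor subunits, 15 log2 fold changes were positive and 3 negative with a median of 0.05, where 48.2% of all genes tested had a positive value, and 1 of the 18 passed the test. Many of these values lay near 0, and the number of positive ones was 11 without AAV2-GFP 1, 11 without AAV206-GFP 4 and 12 to 15 without any other 1 library.

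Of the 7 metabotropic glutamate receptors, 0 passed the test and 3 had positive and 4 negative log2 fold changes, with a median of -0.15. In group I, which couples to phospholipase C, Grm5 was held down by 1 library, AAV206-GFP 5 at 12.5 CPM against 24.1 to 27.8 CPM in the others of its group, and had a log2 fold change of -0.15. In group II, which lowers cyclic AMP and restrains release, Grm2 stood at 15.1, 15.2, 19.0, 18.7 and 15.6 CPM with AAV2-GFP and at 12.5, 14.2, 13.97, 17.0 and 15.5 CPM with AAV206-GFP. The groups overlapped, with a log2 fold change of -0.20 ± 0.11 (SE, adjusted p = 0.277). Grm3 was low, at 1.14 ± 0.492 and 1.39 ± 0.695 CPM (SD, n = 5), and its 95% interval of -0.60 to 1.17 left its direction undetermined.

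Group III holds receptors that sit mainly on presynaptic terminals. Grm7 had the highest level per kilobase of the 3, 2.89, and stood at 19.5, 15.99, 14.5, 15.9 and 17.9 CPM with AAV2-GFP and at 16.5, 17.0, 20.4, 15.8 and 16.6 CPM with AAV206-GFP. The values were mixed, with a log2 fold change of 0.04 ± 0.11 (SE, adjusted p = 0.827). Grm4 stood at 16.0035, 20.03, 15.5, 13.2 and 18.1 CPM with AAV2-GFP and at 14.3, 11.3, 13.2, 9.87 and 13.1 CPM with AAV206-GFP. All but the lowest AAV2-GFP value lay above every AAV206-GFP value, and the adjusted p of 0.0508 fell just outside the threshold at a log2 fold change of -0.42 ± 0.13 (SE). It was 0.0368 without AAV2-GFP 4 and 0.0461 without AAV206-GFP 1. Grm4 passed in 2 of the 10 fits that left out 1 library and in 5 of the 13 other alternatives. Grm8 had a log2 fold change of -0.24 ± 0.12 (SE, adjusted p = 0.191).

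The GABA-A receptor is a chloride channel of 5 subunits, usually alpha, beta and gamma, and the alpha subunit sets much of its drug response. Of the 16 GABA-A subunits in the set 15 were tested, 1 passed, and 7 had positive and 8 negative log2 fold changes with a median of -0.06. Of the alpha subunits, Gabra3 was at 9.96 CPM per kilobase, Gabra2 at 2.23, Gabra4 at 1.57 and Gabra5 at 0.276.

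Gabra2 (ENSMUSG00000000560, chromosome 5, 70957597 to 71095849, minus strand, mm10) stood at 22.4, 21.8, 19.7, 21.3 and 20.8 CPM with AAV2-GFP. With AAV206-GFP it stood at 11.3, 13.7, 13.5, 12.5 and 13.3 CPM. Every AAV206-GFP value lay well below every AAV2-GFP value, and the spread within each group was small. The means were 21.2 ± 1.03 and 12.9 ± 1.00 CPM (SD, n = 5). The fitted log2 difference was -0.72 ± 0.09 (SE, adjusted p = 0.000174), with a 95% interval of 52.8% to 69.5% of the AAV2-GFP level. Gabra2 passed the test in all 10 fits that left out 1 library and in all 13 other alternatives. Its counts were whole in every library, and no annotated gene overlaps it. Its share of the summed alpha subunit level per kilobase was 9.08% ± 0.97 in the AAV2-GFP mice and 6.18% ± 0.78 in the AAV206-GFP mice (mean ± SD of 5), while Gabra3 was 33.1% and 35.6%, and Gabra4 4.95% and 5.91%. The summed levels of the amacrine genes, 1088 to 1204 CPM with AAV2-GFP and 1125 to 1208 CPM with AAV206-GFP, overlapped between the groups. Those of the 9 ganglion cell genes, 963 to 1134 and 906 to 1029 CPM, overlapped as well, but the median log2 fold change of that list was -0.15. In it Pou4f1, a transcription factor of ganglion cells, was called lower at 77.2% of its AAV2-GFP level (adjusted p = 0.00623) and Nefm, a neurofilament gene, was at 89.4% without overlap (adjusted p = 0.0706). Rbpms and Slc17a6 had positive log2 fold changes, 0.11 and 0.05. Pou4f2, Nefl, Thy1, Sncg and Nrn1 had negative ones, from -0.09 to -0.25. None of these passed the test. The part of the ganglion cell genes in the Gabra2 result was not tested.

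**Figure D3:**
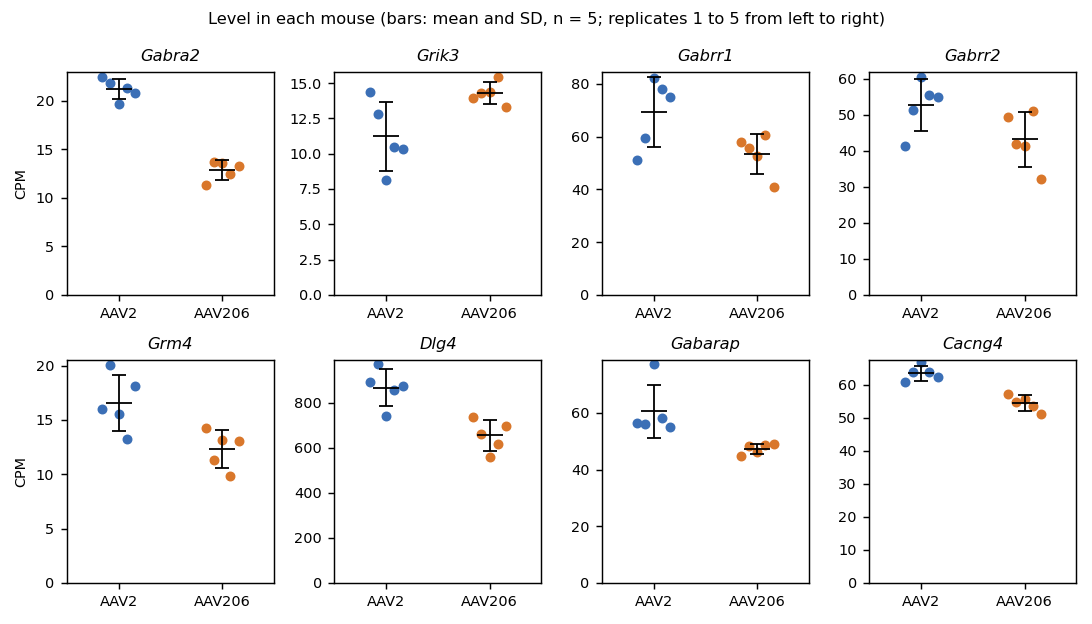
Level in CPM of 5 receptor subunits and 3 partner genes in each mouse, AAV2-GFP in blue and AAV206-GFP in orange, with bars for the mean and SD (n = 5). The groups are apart for Gabra2, Dlg4, Gabarap and Cacng4, and overlap for Grik3, Gabrr1, Gabrr2 and Grm4.

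Many GABA-A subunit genes lie in clusters, and Gabra2 shares one on chromosome 5 with Gabrg1, Gabra4 and Gabrb1. The other three did not pass the test, with log2 fold changes of 0.30 ± 0.16 for Gabrg1 (adjusted p = 0.221), 0.08 ± 0.13 for Gabra4 (adjusted p = 0.733) and 0.16 ± 0.11 for Gabrb1 (SE, adjusted p = 0.354). The 95% interval of Gabrg1, -0.03 to 0.64, did not reach the value of Gabra2, nor did those of Gabra4, -0.20 to 0.36, and Gabrb1, -0.07 to 0.40. The difference between these genes was not itself tested. Gabra4 and Gabrb1 overlap at their starts on opposite strands, and the labels do not say that the library kit kept strand. Reads there might therefore not be told apart, although the counts of both genes were whole in every library. To show how the starts of these neighbouring genes differ, the 250 bases before Gabra2 (chr5:71095850-71096099) and before Gabrg1 (chr5:70842618-70842867), both on the minus strand of GRCm38.p6, are given from RefSeq, 5′ to 3′, with the GC box GGGCGG in capitals.
Gabra2: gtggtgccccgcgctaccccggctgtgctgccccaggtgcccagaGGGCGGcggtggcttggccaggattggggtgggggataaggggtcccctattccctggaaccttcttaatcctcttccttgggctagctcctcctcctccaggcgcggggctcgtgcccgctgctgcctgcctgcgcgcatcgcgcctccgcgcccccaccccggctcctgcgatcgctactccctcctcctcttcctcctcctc
Gabrg1: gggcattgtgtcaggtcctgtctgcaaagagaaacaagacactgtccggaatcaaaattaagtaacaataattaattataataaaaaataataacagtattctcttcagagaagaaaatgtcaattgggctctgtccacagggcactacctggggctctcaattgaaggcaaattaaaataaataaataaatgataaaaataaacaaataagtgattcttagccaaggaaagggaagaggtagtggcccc
The Gabra2 window holds 1 GC box, 18 CpG dinucleotides and 70% G and C, and the Gabrg1 window holds 0 GC boxes, 1 CpG and 35.6% G and C. The motif was searched as GGGCGG on both strands, and a match is a description of the letters only. Of the 49 genes 33 had a RefSeq promoter, 20 of them with the motif, which lay in 22 of their 41 windows (53.7%) and in 32.7% of all 32851 windows of this length.

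Beta, gamma and other subunits complete the GABA-A receptor. Gabrd, a subunit of receptors outside synapses, stood at 13.2, 9.52, 15.8, 15.6 and 13.8 CPM with AAV2-GFP and at 13.97, 12.2, 12.9, 11.4 and 14.8 CPM with AAV206-GFP. The groups overlapped fully, with a log2 fold change of -0.06 ± 0.14 (SE, adjusted p = 0.816). Gabra3, Gabrb2, Gabrg3 and Gabrq had log2 fold changes of -0.06, 0.13, 0.17 and 0.21, none past the threshold. Gabra5 was not tested because its counts were too low, with 0.342 to 1.36 CPM with AAV2-GFP and 0.517 to 1.35 CPM with AAV206-GFP.

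The rho subunits form slowly closing GABA receptors on bipolar cell terminals, and Gabrr1 had the highest level per kilobase of all 49 genes. Gabrr1 stood at 51.1, 59.6, 82.1, 78.2 and 75.1 CPM with AAV2-GFP and at 57.8, 55.6, 52.7, 60.6 and 41.0 CPM with AAV206-GFP. Only AAV2-GFP 3, 4 and 5 lay above the AAV206-GFP range, and AAV2-GFP 1 and 2 lay within it. The log2 fold change of -0.37 ± 0.13 (SE) did not pass the test (adjusted p = 0.0647). The adjusted p was 0.0122 without AAV2-GFP 1 and 0.0487 without AAV2-GFP 2. Gabrr1 passed in 2 of the 10 fits that left out 1 library and in 5 of the 13 other alternatives. Gabrr2, its neighbour on chromosome 4, had means of 52.7 ± 7.17 and 43.2 ± 7.55 CPM (SD, n = 5) and a log2 fold change of -0.29 ± 0.12 (SE, adjusted p = 0.120, and 0.0394 without AAV2-GFP 1). Gabrr2 passed in 1 of the 10 fits that left out 1 library and in 2 of the 13 other alternatives. Gabrr3, on chromosome 16, had 29.2 ± 3.79 and 32.9 ± 4.81 CPM (SD, n = 5) and a log2 fold change of 0.17 ± 0.11 (SE, adjusted p = 0.331). Gabrr3 made up 11.1% ± 0.97 of the summed rho level per kilobase in the AAV2-GFP mice and 15.01% ± 1.63 in the AAV206-GFP mice (mean ± SD of 5). Without AAV2-GFP 1 and AAV206-GFP 5, the libraries with the lowest bipolar cell level, the adjusted p was 0.0154 for Gabrr1 at a log2 fold change of -0.38 and 0.0499 for Gabrr2 at -0.27.

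Both GABA-B subunits are needed for a working receptor. Gabbr1, which binds GABA, stood at 184, 197, 179, 180 and 180 CPM with AAV2-GFP and at 198, 195, 198, 198 and 195 CPM with AAV206-GFP. The AAV206-GFP values were nearly equal and AAV2-GFP 2 lay among them, with a log2 fold change of 0.10 ± 0.05 (SE, adjusted p = 0.240). Gabbr2, which couples to the G protein, had a log2 fold change of -0.03, and its 95% interval was -0.18 to 0.12.

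Glycine receptors combine an alpha subunit with the beta subunit Glrb, which binds gephyrin. Glrb was the highest at 14.04 CPM per kilobase and stood at 62.5, 64.6, 67.0, 71.7 and 76.3 CPM with AAV2-GFP and at 60.7, 67.7, 65.3, 65.3 and 52.7 CPM with AAV206-GFP. The groups overlapped, with AAV206-GFP 5 the lowest, and the log2 fold change was -0.13 ± 0.08 (SE, adjusted p = 0.270). Glra2 led the alpha subunits at 5.20 CPM per kilobase, with Glra1 at 3.10, Glra3 at 3.05 and Glra4 at 0.841. Their log2 fold changes were -0.10 for Glra2, 0.47 ± 0.23 for Glra1 (adjusted p = 0.194), -0.20 ± 0.09 for Glra3 (SE, adjusted p = 0.164) and -0.12 for Glra4, so that 0 of the 5 glycine subunits passed the test. Glra1 was spread from 4.66 to 14.3 CPM within AAV206-GFP alone.

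Subunit levels within a group followed the mice. AAV2-GFP 1 had the lowest level of its group for 22 of the 49 genes (44.9%, against 23.5% of all genes tested), and AAV206-GFP 5 for 24 (48.98%, against 19.6%). AAV2-GFP 1 had the highest level of its group for 10 (20.4%, against 23.1%), and AAV206-GFP 5 for 3 (6.12%, against 20.9%). For 13 genes both libraries were the lowest of their groups, among them Gria1, Gria2, Grik1, Grik2, Grid1, Grm5, Gabrr1, Gabrr2, Gabrr3, Glra3 and Glrb. The same libraries had the lowest summed level of 12 bipolar cell genes. That sum was 1344, 1641, 1781, 1806 and 1729 CPM with AAV2-GFP and 1884, 1795, 1605, 1866 and 1209 CPM with AAV206-GFP. They also had the lowest summed level of 6 horizontal cell genes, 325 CPM against 392 to 428 CPM in the other AAV2-GFP libraries and 310 CPM against 400 to 429 CPM in the other AAV206-GFP libraries. The summed amacrine level was also lowest there, by a narrower margin, at 1088 CPM against 1120 to 1204 CPM and at 1125 CPM against 1136 to 1208 CPM. AAV206-GFP 5 had the highest summed rod level, 62777 CPM, and AAV2-GFP 1 the lowest, 53222 CPM. AAV2-GFP 1 was also the lowest of its group for the cone, ganglion cell and Muller glia sums, at 776, 963 and 2622 CPM. AAV206-GFP 5 was the highest of its group for the ganglion cell sum, at 1029 CPM. With both libraries left out, 6 receptor genes passed the test, among them Gabra2, Gabrr1 and Gabrr2 lower, and Grik3 and Grid2ip higher. The part of the bipolar, horizontal, amacrine, rod, cone, ganglion cell and Muller glia genes in the subunit levels was not tested. Leaving out these libraries does not test it, since several lists differed in them at once.

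**Figure D4:**
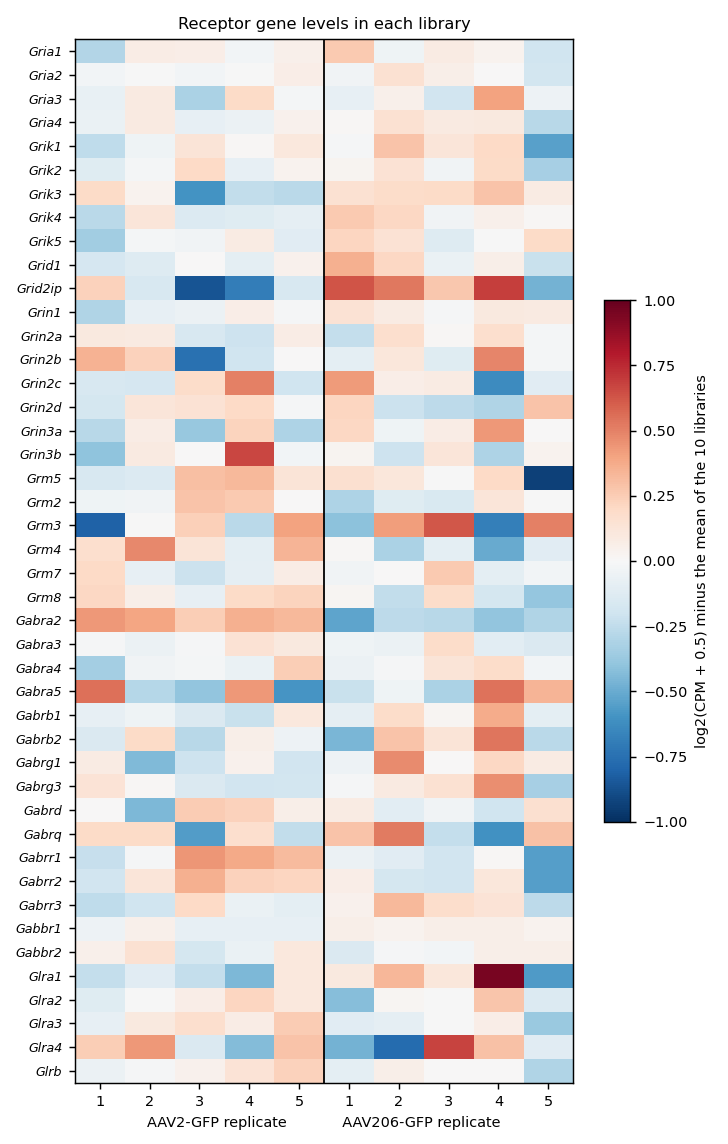
Level of 44 of the genes in each library as log2(CPM + 0.5) minus the mean of the 10 libraries, with colours cut at 1 unit either way. Gabra2 is the row that changes colour at the line between the groups in every library, and AAV2-GFP 1 and AAV206-GFP 5 hold the lowest level of their groups for 22 and 24 of all 49 genes.

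**Figure D5:**
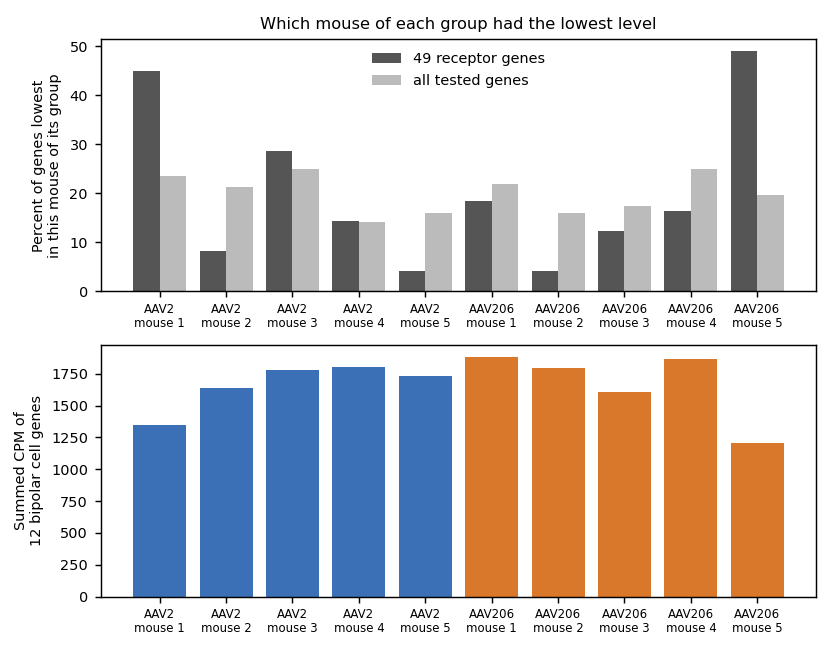
Upper panel, percent of genes whose lowest level within a group fell in each mouse, for the 49 receptor genes and for all tested genes. Lower panel, summed CPM of 12 bipolar cell genes in each mouse: AAV2-GFP 1 and AAV206-GFP 5, at 1344 and 1209 CPM, are the lowest of their groups and hold the lowest level of 44.9% and 48.98% of the receptor genes.

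The partners of these receptors were described from a list of 75 genes: auxiliary subunits, scaffolds, organisers in the synaptic cleft, and the enzymes and transporters of the transmitters. All 75 were tested and 4 passed (5.33%), 3 lower and 1 higher, with a median log2 fold change of -0.03, against 11.2% and a median of -0.01 over all genes. At an unadjusted p under 0.05 there were 14 (18.7%), against 28.0% of all genes. Dlg4 encodes the synaptic scaffold protein PSD-95 and is listed here with the glutamate receptor scaffolds, but where in the retina it acts was not tested. Dlg4 stood at 893, 970, 742, 859 and 875 CPM with AAV2-GFP and at 739, 661, 561, 617 and 697 CPM with AAV206-GFP. The groups came close, at 742 and 739 CPM, but did not overlap. Its log2 fold change was -0.41 ± 0.08 (SE, adjusted p = 0.00445), or 75.5% of the AAV2-GFP level. Gabarap, which encodes a protein that binds GABA-A gamma subunits and also serves autophagy, lies near Dlg4 on chromosome 11, from 69991143 to 69994951 against 70016942 to 70047522. It stood at 56.6, 56.0, 77.1, 58.2 and 55.02 CPM with AAV2-GFP and at 44.8, 48.2, 46.2, 48.6 and 48.9 CPM with AAV206-GFP. Every AAV206-GFP value was lower, with a log2 fold change of -0.36 ± 0.09 (SE, adjusted p = 0.0172). Nlgn2, also among the 75 and on chromosome 11, from 69823122 to 69837784, had a log2 fold change of -0.07 ± 0.08 (SE, adjusted p = 0.572). Whether the positions of these genes bear on their levels was not tested.

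Cacng4, an auxiliary AMPA receptor subunit of the TARP family, stood at 60.8, 64.0, 66.8, 63.8 and 62.3 CPM with AAV2-GFP and at 57.3, 54.9, 55.9, 53.5 and 51.0 CPM with AAV206-GFP. The groups did not overlap, and the log2 fold change was small, -0.22 ± 0.06 (SE, adjusted p = 0.0246). Its adjusted p was 0.0505 without AAV2-GFP 3, 0.0647 without AAV2-GFP 4, 0.0536 without AAV206-GFP 2, 0.0534 without AAV206-GFP 4, 0.0666 with the replicate number as a block and 0.0703 without AAV2-GFP 1 and 4. Slc6a13, the GABA transporter GAT2, was the only one of the 75 that was called higher, at a low level of 1.36, 0.719, 1.39, 0.484 and 0.598 CPM with AAV2-GFP and 5.22, 1.82, 3.36, 1.44 and 2.63 CPM with AAV206-GFP. The lowest AAV206-GFP value lay just above the highest AAV2-GFP value, with a log2 fold change of 1.66 ± 0.40 (SE, adjusted p = 0.0147). The summed level of 5 red blood cell genes, 4 of them called higher, was 67.8 to 85.8 CPM with AAV2-GFP and 256, 125, 319, 101 and 141 CPM with AAV206-GFP, so that AAV206-GFP 1 and 3 were the highest for both that sum and Slc6a13. The part of those genes in the Slc6a13 result was not tested.

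By role, 1 of 16 auxiliary subunits of glutamate receptors passed (Cacng4), 1 of 16 scaffolds and trafficking proteins of glutamate receptors (Dlg4), 0 of 10 organisers in the cleft, 1 of 10 scaffolds and assembly proteins of GABA and glycine receptors (Gabarap), 0 of 3 GABA-B auxiliary subunits and 1 of 20 genes of transmitter synthesis, loading and removal (Slc6a13). Gphn, which encodes gephyrin, the scaffold under glycine and GABA-A receptors, had a log2 fold change of 0.06 ± 0.08 (SE, adjusted p = 0.619). Gad2, an enzyme of GABA synthesis, had 55.2 ± 4.47 and 64.3 ± 3.98 CPM (SD, n = 5) and a log2 fold change of 0.22 ± 0.07 (SE, adjusted p = 0.0542). Gad1, the other such enzyme, had a log2 fold change of 0.01. Slc17a7, the vesicular glutamate transporter of photoreceptors and bipolar cells, had a log2 fold change of -0.01.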

How the data were processed

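Reads of 150 bases in pairs came from retinal total RNA extracted with Trizol and made into NEBNext Ultra RNA libraries, per the labels' protocols. The authors deposited 1 table of estimated counts per gene. STAR 2.7.10b, RSEM 1.3.1 and mm10 are named, per the submitters' processing notes. Of the values above 0, 15.7% were not whole, and all were rounded to whole numbers before testing. Names, lengths and coordinates are those of GENCODE M21.

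Of 57010 genes, 28442 had any count. The 15539 kept by filterByExpr (minimum count 10) were scaled by TMM and tested with edgeR 4.0.16 (quasi-likelihood, R 4.3.3), AAV206-GFP against AAV2-GFP, with Benjamini-Hochberg adjustment over all of them and a threshold of 0.05. The standard error of a log2 fold change was its size divided by the square root of F. Fold changes are those of the fit, and CPM used TMM library sizes. The fit was tested on simulated counts. In each library 3 counts, the floor, were 0.232 to 0.274 CPM, which covers counting error only. Pairs of libraries within a group differed by 3.10 to 16.2 chi-square units per degree of freedom, beyond sampling noise, so none was counted as a duplicate. The labels name separate mice, so p-values measure the spread between mice.

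The receptor genes, the 75 partner genes and the 16 marker lists were chosen with earlier results of these data known. The 49 genes are counted in full, but 5 of them are not reported here by name or drawn. Of the others, every library's value is given for those past the threshold, for the highest per kilobase of all in each family and, chosen after their values were seen, for Grik3, Grm4 and Gabrr1. Of the partner genes, those past the threshold were named by rule. Cbln1, Cbln2, Cbln4, Gphn, Nlgn2, Gad1, Gad2 and Slc17a7 were added after their values were seen. Gad1, Gad2, Slc6a9 and Slc32a1 are in both the partner list and the amacrine list. Alternatives were other scaling factors and filters, DESeq2 1.42.0, limma-voom (limma 3.58.1) with and without sample weights, robust dispersions, unrounded counts, the replicate number as a block, each library left out, and AAV2-GFP 1 and 4 left out. Leaving out AAV2-GFP 1 with AAV206-GFP 5 was chosen after seeing the data. Replicate numbers did not pair the mice.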

Additional observations from a re-analysis of the deposited data

Results flagged for a closer look

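In 5 of 106 group results a single mouse lay far from the others of its group, by a gap to its nearest neighbour above 0.71 of the group's range, where chance would give about 5.3 at 1 in 20. Grm5 was low in AAV206-GFP 5, at 12.5 CPM against 24.1 to 27.8 CPM, a gap of 0.761 of the range. AAV206-GFP 3 was high in Grm7, at 20.4 against 15.8 to 17.0 CPM (gap 0.747), and in Gabra3, at 44.2 against 35.3 to 37.9 CPM (gap 0.712). AAV2-GFP 2 was high in Gabbr1, at 197 against 179 to 184 CPM (gap 0.759). AAV2-GFP 3 was high in Gabarap, at 77.1 against 55.02 to 58.2 CPM (gap 0.854), and Gabarap passed the test without that library too.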

How the results depend on the processing

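No result changed direction while past the threshold. Gabra2, Dlg4, Gabarap and Slc6a13 passed under all 23 alternatives. Of the 46 receptor genes not called, 5 passed under some alternative and 19 changed sign under some alternative, 0 of them past the threshold. All genes past the threshold, 1747, became 1085 with the replicate block, 985 without AAV2-GFP 1 and 4, and 991 to 1912 with 1 library left out. The receptor genes called, 2, became 4 with DESeq2, 6 with limma-voom sample weights, 6 without AAV2-GFP 1 and AAV206-GFP 5, and 2 to 6 with 1 library left out. It remained 2 with the replicate block, Gabra2 among them. Receptor genes called higher, 1, became 2 with sample weights, 0 without AAV2-GFP 1 and 4, 3 without AAV2-GFP 1 and AAV206-GFP 5, and 1 to 3 with 1 library left out. Receptor genes called lower, 1, became 2 with total counts only, without a filter on low counts and with robust dispersions, 3 with DESeq2, 4 with sample weights, 3 with either pair of libraries left out, and 1 to 3 with 1 library left out. Partner genes called, 4, became 7 without AAV2-GFP 1 and AAV206-GFP 5 and 3 to 6 with 1 library left out. The cause of these moves was not tested. Mice with the same number in both groups did not deviate together (correlations of -0.05 to 0.04, none best with its own number), so the numbers were not taken as pairs. Depth limits Gabra5, Gabrq, Grm3, Grin3b and Glra4, whose means lay under 2 CPM.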

Other observations

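AAV206-GFP 4 held the highest level of its group for 21 of the 49 receptor genes (42.9%), against 24.2% of all genes tested. Among them was Glra1, which encodes an alpha subunit of the glycine receptor, at 14.3 CPM against 4.66 to 9.12 CPM in the other AAV206-GFP mice, and Gabrb2 at 31.5 against 15.6 to 26.5 CPM. The receptor genes are long, with a median of 187 kb from start to end against 22.5 kb over all genes tested. The chromosome 4 pair Gabrr1 and Gabrr2 had log2 fold changes of -0.37 and -0.29, neither past the threshold.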
